A study of Mus musculus with 12 samples.

Results

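The solute carrier (SLC) genes were followed through acute and later lung injury in mouse alveolar epithelial cells. The members were all genes whose symbol has the form Slc, a family number, the letter a and a member number, apart from 6 genes left out by rule. They came to 217 of the 14179 genes listed in the deposited tables and fell into 45 numbered families. RNA sequencing had been done on 12 libraries of C57BL/6 mice aged 8 to 10 weeks, 3 libraries in each of 4 groups. Mice of the LPS group had received lipopolysaccharide (LPS, a component of bacterial outer membranes) into the trachea at 2 mg/kg 1 day earlier. Mice of the 2-week and the 4-week bleomycin groups had received bleomycin (a DNA-breaking anticancer drug that injures and then scars the mouse lung) by the same route at 1.5 U/kg, and the controls had received saline. Cells carrying CD16/32, CD45, CD31, CD90, Ter119 or PDGFRα were removed from the digested lungs with magnetic beads, and cells bound by an antibody to EpCAM, an epithelial surface protein, were kept.

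SLC proteins carry small molecules and ions across membranes. Each numbered family groups proteins of related sequence, and the families differ in what they carry: amino acids, sugars, lactate, metals, nucleosides, lipids, or metabolites that cross the inner membrane of mitochondria. In the alveolus they clear and secrete fluid and ions, take up choline, fatty acids and phosphate for surfactant, and supply the antioxidant glutathione with cystine and glutamate. Others are known from the phagosomes and lysosomes of macrophages and neutrophils. 4 members take their symbol from a transporter without being one: Slc9a3r1 and Slc9a3r2 encode scaffold proteins that bind membrane proteins, and Slc4a1ap and Slc7a6os are not transporters by name.

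Values were deposited as FPKM, a fragment count corrected for transcript length and library size, so levels can be set side by side between genes and the depth of each library is unknown. Fold changes below are on the log2(FPKM + 1) scale, which understates the change of genes near 1 FPKM. They come from limma, a linear model fitted over all genes that reached 1 FPKM in 3 or more of the libraries compared, with Benjamini-Hochberg adjusted p-values and a threshold of 0.05. A gene is said to have risen or fallen only where it passed this threshold. The labels do not state that the libraries of a group are separate animals, so the spread between them may be technical. Of the 217 members, 194 passed the filter on low values in at least 1 comparison and 23 in none.

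Library 2 of the 4-week group stood apart. It listed 116 of the 209 members found in all tables (55.5%) at 0 FPKM, and 45.4% of all genes, whereas in the other 11 libraries at most 1 member was at 0. Epcam itself was at 0 in that library, against 25.9 and 32.5 FPKM in the other 4-week libraries. It stood at 20.7 to 25.9 FPKM after LPS, at 22.9 to 30.4 FPKM at 2 weeks of bleomycin and at 38.8 to 46.2 FPKM after saline. Results at 4 weeks are therefore given with and without library 2. 1 further library of that group has a column number that none of the titles gives, and it is referred to as unnumbered. Together the members made up 0.526% to 0.745% of summed FPKM after LPS, 0.720% to 0.788% at 2 weeks, 0.495% and 0.634% in the 4-week libraries other than library 2, and 0.686% to 0.7001% after saline.

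In saline cells most members were expressed at a low level. By mean FPKM, 10 members stood at 50 or above, 44 between 10 and 50, 135 between 1 and 10, and 28 below 1. The 10 most abundant held 35.2% of the members' summed FPKM. Slc25a5, a mitochondrial carrier that exchanges ADP for ATP, led at 167 ± 8.78 FPKM (SD, n = 3), ahead of its paralog Slc25a4 at 79.4 ± 3.26 FPKM. Reads of such close paralogs can be split unevenly by a counting step. After Slc25a5 came the scaffold gene Slc9a3r2 (91.8 ± 13.5 FPKM), the glutamine and alanine transporter gene Slc38a2 (85.4 ± 7.0004 FPKM) and Slc43a3, which carries purine bases (79.2 ± 1.36 FPKM). Slc38a2 differed from neither Slc25a4 nor Slc9a3r2 by more than the spread of its libraries. Next were Slc3a2, the heavy chain that amino acid exchangers of the Slc7 family need to reach the surface (72.6 ± 2.85 FPKM), and Slc44a2, of the choline transporter-like family (64.05 ± 6.95 FPKM). The zinc importer gene Slc39a1 (63.1 ± 2.798 FPKM), the haem transporter gene Slc48a1 (55.1 ± 3.22 FPKM) and the peroxisomal carrier gene Slc25a17 (50.3 ± 2.74 FPKM) closed the list. By family, Slc25 had the largest sum of mean FPKM in saline (599, over 40 members), followed by Slc39 (194, over 11), Slc9 (159, over 9, scaffold genes included) and Slc38 (154, over 8).

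At 1 day after LPS, the largest increases over saline were those of Slc15a3, Slc11a1, Slc7a11, Slc2a6, Slc26a4 and Slc7a8, and the largest falls those of Slc38a5, Slc7a10, Slc22a3, Slc17a5, Slc22a23 and Slc1a3, among members that reached a mean of 5 FPKM in either group. Among 187 members tested, 26 rose (13.9%) and 54 fell (28.9%). Over all 12456 genes tested, 14.2% rose and 25.9% fell, so the members' shares were close to the background. The median log2 fold change was -0.22 over the members and -0.22 over all genes. The split depended on scaling: 15 members rose and 62 fell with FPKM rescaled to equal totals, 40 and 35 with median-ratio factors, and 34 and 44 with quantile normalization, under which the median of all genes was -0.37, 0.01 and -0.07. The count of 80 members moved to 49 without LPS library 3 and to 47, 44 and 42 without saline library 1, 2 and 3.

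**Figure D1:**
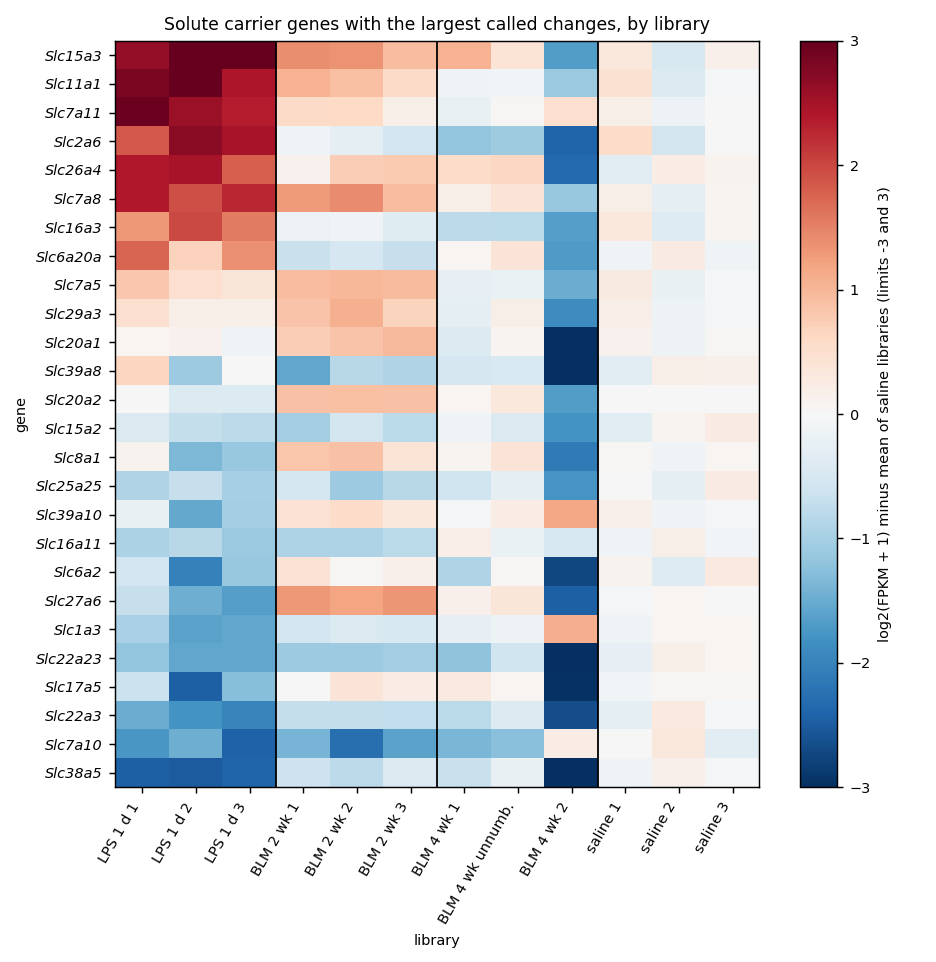
Log2(FPKM + 1) of each library minus the mean of the saline libraries, for the solute carrier genes with the largest called changes in any comparison with saline or between LPS and 2 weeks of bleomycin. Rows are genes ordered by their LPS fold change and columns are libraries. Slc15a3 is red in all 3 LPS libraries and Slc38a5 is blue, and library 2 of the 4-week group, at the right of its block, differs in pattern from the other 4-week libraries.

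Slc15a3 and Slc11a1 had the largest increases after LPS. In the families of copper, iron and magnesium carriers (Slc11, Slc31 and Slc41) 3 of 7 tested members rose and 1 fell. Among all genes tested 14.2% rose and 25.9% fell. Slc15a3 (chromosome 19, 10839727 to 10859362, mm10) encodes a lysosomal carrier of histidine and peptides, including bacterial cell wall fragments. It was at 42.2, 65.6 and 69.2 FPKM in LPS libraries, against 7.67, 3.96 and 6.68 FPKM in saline libraries (log2 fold change 3.09 ± 0.26 (SE), limma adjusted p = 9.28e-05). The lowest LPS library stood above the highest saline library, which is no test apart from the call. Mean FPKM was 9.67 times that of saline. Slc11a1 (chromosome 1, 74375195 to 74386062), the divalent metal transporter of phagosomes, was at 35.6, 44.1 and 27.1 FPKM after LPS and at 6.13, 2.88 and 4.04 FPKM after saline (log2 fold change 2.79 ± 0.26 (SE), limma adjusted p = 0.000141), again without overlap. Slc31a2, a copper transporter of endosomal membranes, was at 40.8, 60.7 and 46.04 FPKM in LPS libraries and at 10.99, 10.6 and 10.5 FPKM in saline libraries (log2 fold change 2.08 ± 0.18 (SE), limma adjusted p = 0.000104). Its saline libraries lay within 1 FPKM of each other. The related copper importer Slc31a1 did not pass the test (log2 0.16 ± 0.23, limma adjusted p = 0.608). Slc11a2, which moves ferrous iron across endosomal and apical membranes, rose less, at 10.6, 7.66 and 7.84 FPKM in LPS libraries and 5.23, 5.57 and 5.41 FPKM in saline libraries (log2 fold change 0.58 ± 0.18 (SE), limma adjusted p = 0.0311). Slc15a3, Slc11a1 and Slc31a2 kept their calls with each library left out in turn. The call was lost for Slc11a2 without LPS library 3 or any 1 saline library (0.0511 to 0.114, 0.00353 to 0.637 over all alternatives), with limma adjusted p in parentheses.

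**Figure D2:**
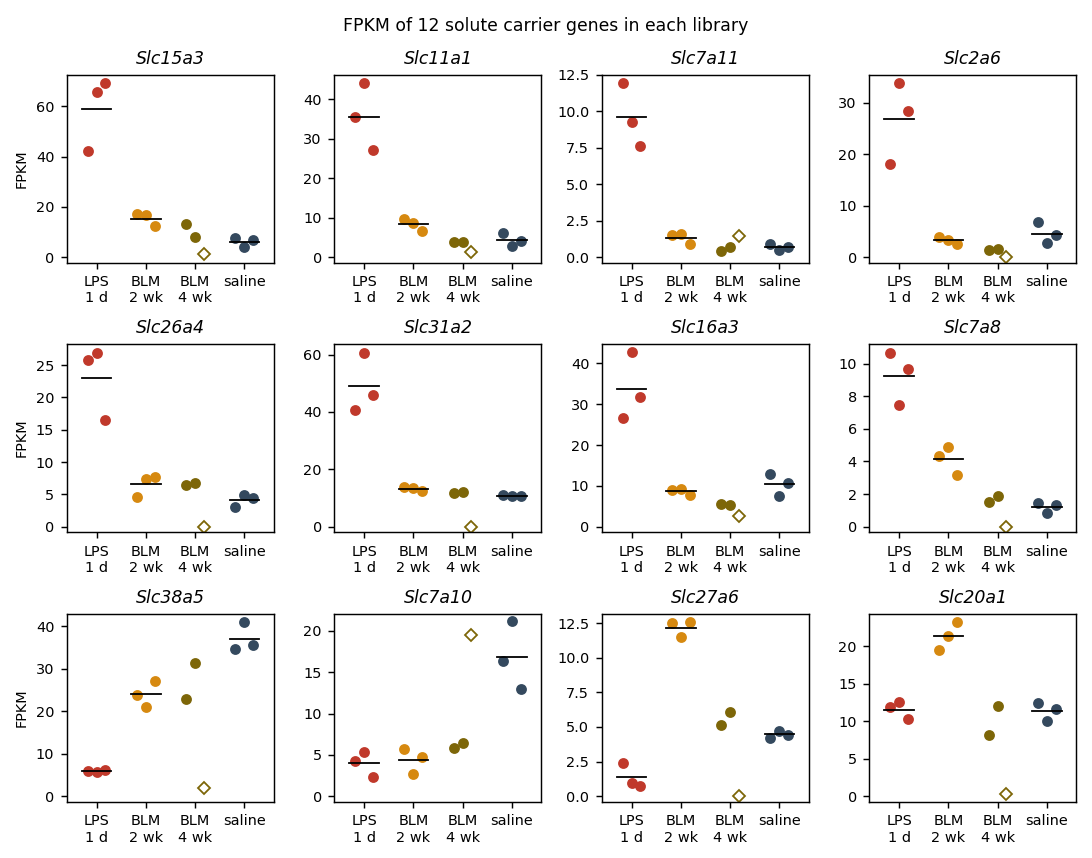
FPKM of 12 solute carrier genes in each library, with 1 point per library and a line at the group mean (none for 4 weeks). The open diamond is library 2 of the 4-week group. The LPS points of Slc15a3, at 42.2 to 69.2 FPKM, lie above every other point of that gene, and those of Slc38a5, at 5.71 to 6.21 FPKM, lie below every saline point.

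Markers of phagocytes, cells that carry CD45 and CD16/32 and so were among those the beads were meant to remove, moved with the same groups. In the list of 10 neutrophil markers all 10 rose after LPS, and their summed level was 2842 to 7814 FPKM in LPS libraries, against 233 to 588 FPKM in saline libraries. Of 11 macrophage and monocyte markers 9 rose and none fell, with sums of 1255 to 1866 FPKM after LPS and 140.0 to 219 FPKM after saline. None of these markers was at 0 in all saline libraries. Of 10 markers of alveolar type 2 (AT2) cells, which make surfactant, 7 fell, and their sum was 6905 to 11562 FPKM after LPS and 18354 to 23480 FPKM after saline. Markers of other cells moved as well after LPS: 4 of 6 club cell markers fell and 1 rose, 6 of 8 ciliated cell markers fell, 4 of 9 of alveolar type 1 (AT1) cells fell and 1 rose, and 3 of 4 mesothelial markers fell. In the fibroblast and smooth muscle list 3 of 9 fell and 1 rose, in the endothelial list 3 of 6 fell, and in the lymphocyte list 4 of 9 rose and 3 fell. The club cell sum was 5447 to 11895 FPKM after LPS and 13632 to 18654 FPKM after saline. The part of the makeup of the cell suspension in the transporter results was not tested. In bulk RNA, fewer cells of a type and less RNA per cell cannot be told apart.

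**Figure D3:**
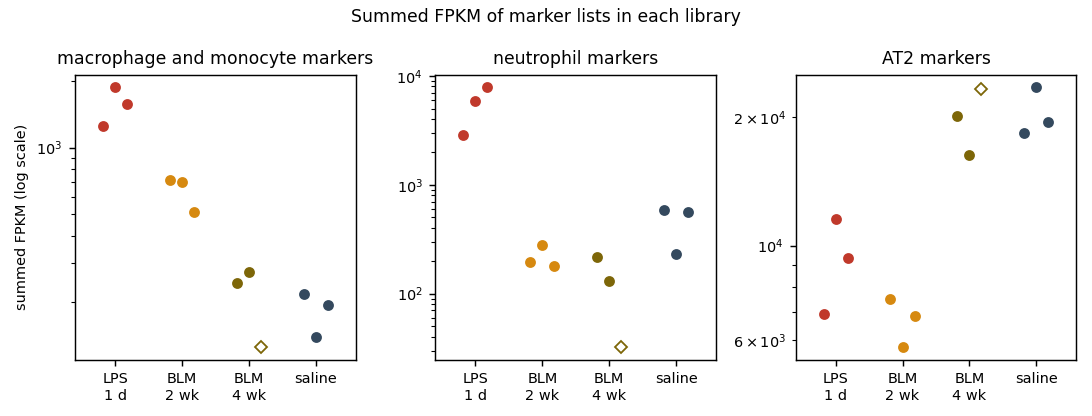
Summed FPKM, on a log axis, of the macrophage and monocyte, neutrophil and AT2 marker lists, with 1 point per library and an open diamond for library 2 of the 4-week group. The neutrophil sum is highest in the 3 LPS libraries, at 2842 to 7814 FPKM, and the AT2 sum is lowest at 2 weeks of bleomycin, at 5797 to 7518 FPKM.

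Amino acid transporters moved in both directions after LPS. Of 27 tested members of the families that carry amino acids (Slc1, Slc3, Slc7, Slc36, Slc38 and Slc43), 3 rose and 9 fell. Over all genes tested 14.2% rose and 25.9% fell. Over the other scalings 2 to 7 of these members rose and 6 to 9 fell, and with 1 library left out 2 to 4 rose and 6 to 13 fell. The 3 that rose were light chains of the Slc7 family, which pair with Slc3a2. Slc7a11 (chromosome 3, 49892526 to 50443614) exchanges intracellular glutamate for cystine, the source of cysteine for glutathione. It was at 11.9, 9.24 and 7.65 FPKM in LPS libraries and at 0.918, 0.497 and 0.684 FPKM in saline libraries (log2 fold change 2.63 ± 0.20 (SE), limma adjusted p = 4.95e-05). Every saline library was below 1 FPKM and every LPS library above 7 FPKM. With saline libraries below 1 FPKM, the filter on low values already required that the groups not overlap. Slc7a8, an exchanger of large neutral amino acids, was at 10.7, 7.47 and 9.64 FPKM after LPS and at 1.48, 0.844 and 1.34 FPKM after saline (log2 fold change 2.21 ± 0.20 (SE), limma adjusted p = 0.000124). Slc7a7, which exports arginine and lysine, was at 8.36, 9.07 and 6.83 FPKM after LPS and at 4.64, 4.19 and 4.76 FPKM after saline (log2 fold change 0.71 ± 0.17 (SE), limma adjusted p = 0.01299). Their heavy chain Slc3a2 ranged widely after LPS, at 79.6, 115 and 68.1 FPKM, against 71.8, 70.3 and 75.8 FPKM after saline, and did not pass the test (log2 fold change 0.23 ± 0.21 (SE), limma adjusted p = 0.398). Slc7a2, the arginine importer of activated macrophages, stood at 18.5, 3.47 and 4.87 FPKM after LPS, against 4.12, 1.27 and 1.41 FPKM after saline. 1 of the LPS values lay within the saline range, and the gene did not pass (log2 fold change 1.40 ± 0.53 (SE), limma adjusted p = 0.0625). Slc7a8 kept its call with each library left out in turn. Slc7a11 kept its call in the 3 fits without 1 saline library and was not tested in those without 1 LPS library, where it missed the filter on low values. A call did not hold for Slc7a7 without saline library 2 or 3 (0.0546 to 0.0687, 0.00151 to 0.534 over all alternatives), with limma adjusted p in parentheses.

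Promoter sequences are shown for 4 members that rose after LPS and whose window of 250 bases before to 50 bases after the RefSeq start held a match to a stress-linked motif. The windows come from RefSeq on GRCm38.p6, the assembly also called mm10, and are written in the direction of transcription with the match in capitals. For Slc7a11 (minus strand, chr3:50443564-50443863) the capitals mark 2 matches to TGATGNAA, a motif bound by ATF4, a factor of the amino acid and endoplasmic reticulum stress response. For Slc7a7 (minus strand, chr14:54417895-54418194, 1 of 5 windows of the gene) they mark 2 matches to the same motif. That window was chosen because none of the gene's windows held more matches. For Slc16a3 and Slc2a1 (plus strand, chr11:120948817-120949116 and chr4:119108495-119108794) they mark ACGTG, the core of the site bound by HIF, the factor of the response to low oxygen. A match may lie on either strand.
Slc7a11: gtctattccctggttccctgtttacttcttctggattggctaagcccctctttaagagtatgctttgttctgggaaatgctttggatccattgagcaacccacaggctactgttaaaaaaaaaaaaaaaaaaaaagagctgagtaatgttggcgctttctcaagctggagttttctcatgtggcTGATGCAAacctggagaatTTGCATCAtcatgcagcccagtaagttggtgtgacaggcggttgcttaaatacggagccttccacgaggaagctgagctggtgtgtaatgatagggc
Slc7a7: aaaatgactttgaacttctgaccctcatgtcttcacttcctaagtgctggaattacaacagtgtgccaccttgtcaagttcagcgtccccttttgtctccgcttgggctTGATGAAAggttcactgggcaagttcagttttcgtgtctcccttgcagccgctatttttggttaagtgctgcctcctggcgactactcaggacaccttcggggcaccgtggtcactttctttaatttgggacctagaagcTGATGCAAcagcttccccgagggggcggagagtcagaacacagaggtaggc
Slc16a3: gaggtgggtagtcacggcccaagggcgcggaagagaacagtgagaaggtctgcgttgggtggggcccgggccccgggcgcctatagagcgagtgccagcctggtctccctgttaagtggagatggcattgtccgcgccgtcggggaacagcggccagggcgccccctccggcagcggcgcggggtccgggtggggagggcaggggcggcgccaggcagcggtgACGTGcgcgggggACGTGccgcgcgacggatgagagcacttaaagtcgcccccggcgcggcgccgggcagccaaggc
Slc2a1: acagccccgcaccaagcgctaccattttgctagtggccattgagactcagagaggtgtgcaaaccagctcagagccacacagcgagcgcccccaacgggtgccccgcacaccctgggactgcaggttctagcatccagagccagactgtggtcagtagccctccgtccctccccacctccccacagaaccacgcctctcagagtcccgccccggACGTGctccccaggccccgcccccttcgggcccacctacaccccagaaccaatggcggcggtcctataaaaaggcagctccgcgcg
In Slc7a11 the matches begin 66 and 47 bases before the start, and in Slc16a3 27 and 14 bases before it. TGATGNAA is in 3.97% of the 32851 windows of all promoters, 3.62% of the 221 windows of members and 11.5% of the 26 windows of members that rose after LPS, which is 3 windows. A gene with several starts has several windows, and these 3 belong to 2 genes, 9.52% of the 21 risers with a window, against 4.51% of all genes. ACGTG is in 19.6%, 28.1% and 34.6%, and in 23.3% of the 60 windows of members that fell. Counted by gene, it is in 21.8% of all genes, 33.3% of members, 38.1% of risers and 30.0% of members that fell. Of the members, 168 of 217 matched a gene in the promoter table. The other motifs searched on both strands were TGACNNNGC, the core of the antioxidant response element (12.4% of all windows and 15.4% of those of risers), and TGCNCNC, the core of the metal response element (51.0% of all windows and 13 of the 26 windows of risers). Motifs of NF-kB and of the interferon-stimulated response element were in 0.411% and 3.44% of all windows, and in 0 and 1 windows of members that rose. A match describes letters in this window and not binding.

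5 of the 9 amino acid carriers that fell after LPS are described here. Slc38a5 (chromosome X, 8271133 to 8280179), which couples glutamine and histidine to sodium and protons, fell most of all members that reached a mean of 5 FPKM in either group. It was at 5.95, 5.71 and 6.21 FPKM in LPS libraries, against 34.5, 40.99 and 35.6 FPKM in saline libraries (log2 fold change -2.45 ± 0.16 (SE), limma adjusted p = 2.59e-05). The LPS libraries lay within 1 FPKM of each other, and mean FPKM after saline was 6.22 times that after LPS. Slc7a10, an exchanger of small amino acids such as serine and glycine, was at 4.23, 5.37 and 2.29 FPKM after LPS and at 16.3, 21.2 and 13.03 FPKM after saline (log2 fold change -1.87 ± 0.28 (SE), limma adjusted p = 0.00123). Slc38a2 was at 54.8, 26.3 and 43.1 FPKM after LPS and at 89.2, 89.7 and 77.3 FPKM after saline (log2 fold change -1.08 ± 0.25 (SE), limma adjusted p = 0.0106), with LPS library 2 the lowest. Slc1a3, a sodium-coupled glutamate importer, was at 3.499, 1.94 and 2.04 FPKM after LPS and at 7.14, 8.29 and 8.32 FPKM after saline (log2 fold change -1.38 ± 0.21 (SE), limma adjusted p = 0.00145). Slc1a5, the main glutamine exchanger of many cells, fell by less, at 29.9, 31.8 and 25.7 FPKM in LPS libraries and 40.9, 39.6 and 40.9 FPKM in saline libraries (log2 fold change -0.47 ± 0.16 (SE), limma adjusted p = 0.0406). No group of these 5 genes overlapped the other, but they were chosen among genes that passed the test. Of the 4 Slc1 members 3 fell, beside 25.9% of all genes tested. Over the other scalings 0 rose and 2 to 3 fell, and with 1 library left out 0 rose and 2 to 3 fell. Slc38a5, Slc7a10, Slc38a2 and Slc1a3 kept their calls with each library left out in turn. The threshold was missed for Slc1a5 without LPS library 3 or any 1 saline library (0.0914 to 0.157, 0.00809 to 0.503 over all alternatives), with limma adjusted p in parentheses.

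The hexose families and the Slc16 family, which holds lactate carriers, had members that rose and members that fell after LPS. Of 18 tested members of the hexose families (Slc2, Slc5, Slc37, Slc45 and Slc50), 4 rose and 4 fell. Among all genes tested 14.2% rose and 25.9% fell. Over the other scalings 3 to 4 rose and 2 to 6 fell, and with 1 library left out 3 to 4 rose and 1 to 5 fell. Of 8 Slc2 members 2 rose and 2 fell. Of 3 Slc5 members 1 rose and 1 fell, and of 4 Slc37 members 1 rose and 1 fell. The Slc37 member that rose, Slc37a2, is described below with the lipid and nucleoside carriers. Slc2a6, a hexose transporter of intracellular membranes, was at 18.1, 33.7 and 28.4 FPKM in LPS libraries and at 6.81, 2.65 and 4.29 FPKM in saline libraries (log2 fold change 2.34 ± 0.31 (SE), limma adjusted p = 0.0007596). Slc2a1, the glucose importer GLUT1, was at 32.4, 31.3 and 31.4 FPKM after LPS and at 19.4, 18.9 and 17.96 FPKM after saline (log2 fold change 0.73 ± 0.15 (SE), limma adjusted p = 0.00535), with all libraries of each group within 2 FPKM. Slc2a3, the glucose importer of neurons and many white cells, overlapped between groups, at 2.72, 1.99 and 2.07 FPKM after LPS and 2.77, 1.46 and 2.303 FPKM after saline, and did not pass (log2 fold change 0.052 ± 0.20 (SE), limma adjusted p = 0.851). Slc5a1, the sodium-coupled glucose importer, rose at a low level, with 2.34, 2.18 and 1.59 FPKM in LPS libraries and 0.974, 1.19 and 0.738 FPKM in saline libraries (log2 fold change 0.63 ± 0.16 (SE), limma adjusted p = 0.0171). Slc16a3, the lactate exporter MCT4, was at 26.5, 42.7 and 31.7 FPKM after LPS and at 12.9, 7.47 and 10.7 FPKM after saline (log2 fold change 1.61 ± 0.24 (SE), limma adjusted p = 0.00131). Its relative Slc16a1 (MCT1) had overlapping values, 25.7, 13.3 and 18.7 FPKM after LPS and 19.4, 20.4 and 15.4 FPKM after saline (log2 fold change 0.024 ± 0.24 (SE), limma adjusted p = 0.945). Of 10 members of the Slc16 family 2 rose and 4 fell, and over the other scalings 2 to 3 rose and 3 to 4 fell, and with 1 library left out 2 to 3 rose and 3 to 5 fell. Slc2a6, Slc2a1 and Slc16a3 kept their calls with each library left out in turn. Fits without 1 library lost the call for Slc5a1 without saline library 1 or 3 (0.0645 to 0.105, 0.00232 to 0.172 over all alternatives), with limma adjusted p in parentheses.

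Among transporters of the apical epithelial surface, Slc26a4 (pendrin), which exchanges chloride for bicarbonate and other anions in the airway, was at 25.8, 26.9 and 16.5 FPKM in LPS libraries and at 3.06, 4.87 and 4.38 FPKM in saline libraries (log2 fold change 2.22 ± 0.23 (SE), limma adjusted p = 0.000241). Slc6a20a, which imports proline, was at 9.87, 4.26 and 7.34 FPKM after LPS and at 2.01, 2.82 and 1.98 FPKM after saline (log2 fold change 1.27 ± 0.27 (SE), limma adjusted p = 0.0068997). Its reads may be shared with the near-identical copy Slc6a20b, so its values are uncertain. Slc6a14, an importer of most amino acids, spread over 20.6, 4.99 and 12.3 FPKM after LPS, against 15.3, 17.2 and 16.3 FPKM after saline. LPS library 1 was above and the others below all saline libraries, and the gene did not pass (log2 fold change -0.53 ± 0.39 (SE), limma adjusted p = 0.299). The scaffold gene Slc9a3r1, whose protein binds the tails of apical channels and exchangers, was at 68.3, 74.5 and 68.9 FPKM after LPS and at 43.8, 47.5 and 40.99 FPKM after saline (log2 fold change 0.67 ± 0.15 (SE), limma adjusted p = 0.00971). Slc6a2, the noradrenaline importer, fell to 3.45, 0.633 and 2.04 FPKM after LPS, against 6.11, 4.06 and 7.15 FPKM after saline (log2 fold change -1.24 ± 0.35 (SE), limma adjusted p = 0.0219). Of 6 tested members of the Slc4 family of bicarbonate transporters, counted with Slc4a1ap, which is no transporter by name, 3 fell and none rose. By comparison, 25.9% of all genes tested fell and 14.2% rose. Over the other scalings 0 rose and 1 to 3 fell, and with 1 library left out 0 rose and 0 to 3 fell. No Slc4 member fell without any 1 saline library. Slc4a5 of that family was at 0.855, 0.223 and 0.629 FPKM after LPS and at 2.27, 4.18 and 3.66 FPKM after saline (log2 fold change -1.47 ± 0.22 (SE), limma adjusted p = 0.00146). Slc26a4 and Slc6a20a kept their calls with each library left out in turn. Slc4a5 kept its call in the 3 fits without 1 LPS library and was not tested in those without 1 saline library, where it missed the filter on low values. As it was below 1 FPKM in every LPS library, this filter already required that its groups not overlap. The call was lost for Slc9a3r1 without saline library 3 (0.0738, 0.00128 to 0.732 over all alternatives) and for Slc6a2 without LPS library 3 or saline library 1 or 3 (0.0637 to 0.0777, 0.00168 to 0.286 over all alternatives), with limma adjusted p in parentheses.

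In the Slc22 family of organic cation, organic anion and carnitine carriers 5 of 7 tested members fell after LPS and none rose. By comparison, 25.9% of all genes tested fell and 14.2% rose. Over the other scalings 0 rose and 4 to 5 fell, and with 1 library left out 0 rose and 3 to 6 fell. Slc22a3, an importer of organic cations and monoamines, was at 1.25, 0.818 and 0.559 FPKM in LPS libraries and at 4.24, 6.697 and 5.13 FPKM in saline libraries (log2 fold change -1.76 ± 0.21 (SE), limma adjusted p = 0.000421). Slc22a23, whose cargo is not settled, was at 3.55, 2.52 and 2.49 FPKM after LPS and at 7.77, 10.7 and 9.71 FPKM after saline (log2 fold change -1.43 ± 0.20 (SE), limma adjusted p = 0.0008695). Every LPS library was below every saline library for both genes, which were described because they passed the test. Slc17a5, which exports sialic acid from lysosomes, was at 3.998, 0.421 and 2.19 FPKM after LPS and at 6.39, 6.93 and 7.02 FPKM after saline (log2 fold change -1.46 ± 0.39 (SE), limma adjusted p = 0.0179). LPS library 2 was far below the other LPS libraries, and without it the log2 fold change was -0.96. Slc22a3 and Slc22a23 kept their calls with each library left out in turn. A call did not hold for Slc17a5 without LPS library 3 (0.0672, 0.00312 to 0.3104 over all alternatives), with limma adjusted p in parentheses.

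Of 34 mitochondrial carriers (Slc25) tested after LPS, 1 rose and 6 fell, beside 14.2% and 25.9% of all genes tested. Over the other scalings 0 to 3 rose and 5 to 9 fell, and with 1 library left out 0 to 3 rose and 5 to 13 fell. The count of 13 was reached without LPS library 1. The riser was Slc25a5, at 226, 226 and 259.9 FPKM in LPS libraries and 157, 175 and 168 FPKM in saline libraries (log2 fold change 0.51 ± 0.17 (SE), limma adjusted p = 0.0451). Its paralog Slc25a4 differed little, at 85.03, 78.9 and 78.1 FPKM after LPS and 75.7, 81.7 and 80.8 FPKM after saline (log2 fold change 0.023 ± 0.15 (SE), limma adjusted p = 0.917), as did the phosphate carrier Slc25a3 (log2 fold change -0.079 ± 0.16 (SE), limma adjusted p = 0.706). Slc25a23, which exchanges ATP-magnesium for phosphate under control of calcium, was at 4.46, 4.27 and 2.74 FPKM after LPS and at 10.1, 11.7 and 11.1 FPKM after saline (log2 fold change -1.33 ± 0.20 (SE), limma adjusted p = 0.00131). Its relative Slc25a25 was at 10.1, 11.9 and 9.43 FPKM after LPS and at 20.1, 16.4 and 23.6 FPKM after saline (log2 fold change -0.87 ± 0.19 (SE), limma adjusted p = 0.00718). Slc25a17, of peroxisomes, was at 34.8, 16.6 and 26.8 FPKM after LPS and at 48.3, 53.4 and 49.2 FPKM after saline (log2 fold change -0.98 ± 0.25 (SE), limma adjusted p = 0.0148). The LPS and saline libraries overlapped for none of the 4 called genes, which is no test apart from the call. The mitochondrial iron importer Slc25a37 did not pass (log2 fold change 0.52 ± 0.19 (SE), limma adjusted p = 0.0546). Slc25a23 and Slc25a25 kept their calls with each library left out in turn. The threshold was missed for Slc25a5 without LPS library 3 or any 1 saline library (0.0962 to 0.169, 0.00955 to 0.823 over all alternatives) and for Slc25a17 without LPS library 3 or saline library 2 (0.0535 to 0.0544, 0.00396 to 0.693 over all alternatives), with limma adjusted p in parentheses.

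The zinc families hold importers (Slc39) and exporters (Slc30). Of 11 Slc39 members 5 rose after LPS and 2 fell, beside 14.2% and 25.9% of all genes tested. Over the other scalings 1 to 5 rose and 0 to 2 fell, and with 1 library left out 1 to 2 rose and 0 to 3 fell. The count of rises was 2 without any 1 LPS library and 1 without any 1 saline library. None of the 6 Slc30 members passed, and over the other scalings 0 rose and 0 to 1 fell, and with 1 library left out 0 rose and 0 to 3 fell. Slc39a2 was at 4.94, 1.55 and 4.04 FPKM in LPS libraries and at 0.835, 0.354 and 0.684 FPKM in saline libraries (log2 fold change 1.40 ± 0.30 (SE), limma adjusted p = 0.00694). Slc39a1, the most abundant of the family, was at 106, 81.9 and 104 FPKM after LPS and at 62.9, 60.3 and 65.9 FPKM after saline (log2 fold change 0.61 ± 0.17 (SE), limma adjusted p = 0.0216). Slc39a4, the zinc importer of the intestine, was at 50.1, 55.01 and 44.2 FPKM after LPS and at 29.6, 38.6 and 37.05 FPKM after saline (log2 fold change 0.50 ± 0.17 (SE), limma adjusted p = 0.0488). Slc39a8, which imports zinc and manganese, had the widest spread, at 29.7, 8.24 and 18.5 FPKM after LPS and 14.7, 21.4 and 21.02 FPKM after saline, and did not pass (log2 fold change -0.16 ± 0.39 (SE), limma adjusted p = 0.758). Slc39a10 was at 3.71, 0.892 and 1.72 FPKM after LPS and at 5.08, 4.05 and 4.31 FPKM after saline (log2 fold change -0.92 ± 0.30 (SE), limma adjusted p = 0.0393), and its log2 fold change was -0.61 without LPS library 2. Slc39a2 kept its call in the 3 fits without 1 saline library and was not tested in those without 1 LPS library, where it missed the filter on low values. As it was below 1 FPKM in every saline library, this filter already required that its groups not overlap. Fits without 1 library lost the call for Slc39a1 without LPS library 3 or any 1 saline library (0.0634 to 0.101, 0.00452 to 0.457 over all alternatives), for Slc39a4 without any 1 LPS library or any 1 saline library (0.0556 to 0.195, 0.0138 to 0.613 over all alternatives) and for Slc39a10 without LPS library 2 or 3 or any 1 saline library (0.0788 to 0.133, 0.00279 to 0.224 over all alternatives), with limma adjusted p in parentheses.

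Lipid and nucleoside carriers moved in both directions after LPS. Of 9 tested carriers of nucleosides and nucleotide sugars 1 rose and 2 fell, beside 14.2% and 25.9% of all genes tested. Of 4 tested Slc27 members, which import and activate long-chain fatty acids, 1 rose and 3 fell, and over the other scalings 0 to 1 rose and 2 to 3 fell, and with 1 library left out 0 to 1 rose and 2 to 3 fell. Slc27a6 was at 2.39, 0.989 and 0.732 FPKM in LPS libraries and at 4.23, 4.72 and 4.43 FPKM in saline libraries (log2 fold change -1.27 ± 0.25 (SE), limma adjusted p = 0.00477). Slc27a1 was at 7.098, 7.73 and 4.21 FPKM after LPS and at 10.8, 11.2 and 12.7 FPKM after saline (log2 fold change -0.81 ± 0.22 (SE), limma adjusted p = 0.0201). Of the 4 choline transporter-like Slc44 members 2 fell and none rose, and over the other scalings 0 rose and 2 to 3 fell, and with 1 library left out 0 rose and 1 to 3 fell. The abundant Slc44a2 (log2 fold change -0.44 ± 0.19 (SE), limma adjusted p = 0.0899) and Slc44a4 (log2 fold change -0.22 ± 0.17 (SE), limma adjusted p = 0.336) did not pass. Slc29a1, the equilibrative nucleoside transporter, fell to 10.1, 15.5 and 8.71 FPKM after LPS, against 21.96, 22.6 and 27.9 FPKM after saline (log2 fold change -1.05 ± 0.22 (SE), limma adjusted p = 0.00712). Slc28a2, the sodium-coupled importer of purine nucleosides, was at 4.67, 4.204 and 5.83 FPKM after LPS and at 3.04, 1.73 and 1.72 FPKM after saline (log2 fold change 0.92 ± 0.21 (SE), limma adjusted p = 0.0102). Slc37a2, a sugar-phosphate exchanger of the endoplasmic reticulum that is abundant in macrophages, was at 1.86, 3.33 and 2.11 FPKM after LPS and at 0.703, 0.689 and 0.756 FPKM after saline (log2 fold change 0.98 ± 0.18 (SE), limma adjusted p = 0.00361). Slc27a6 and Slc29a1 kept their calls with each library left out in turn. Slc37a2 kept its call in the 3 fits without 1 saline library and was not tested in those without 1 LPS library, where it missed the filter on low values. As it was below 1 FPKM in every saline library, this filter already required that its groups not overlap. The call was lost for Slc27a1 without any 1 saline library (0.0518 to 0.0848, 0.00385 to 0.595 over all alternatives) and for Slc28a2 without saline library 2 or 3 (0.053 to 0.0556, 0.00135 to 0.145 over all alternatives), with limma adjusted p in parentheses.

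**Figure D4:**
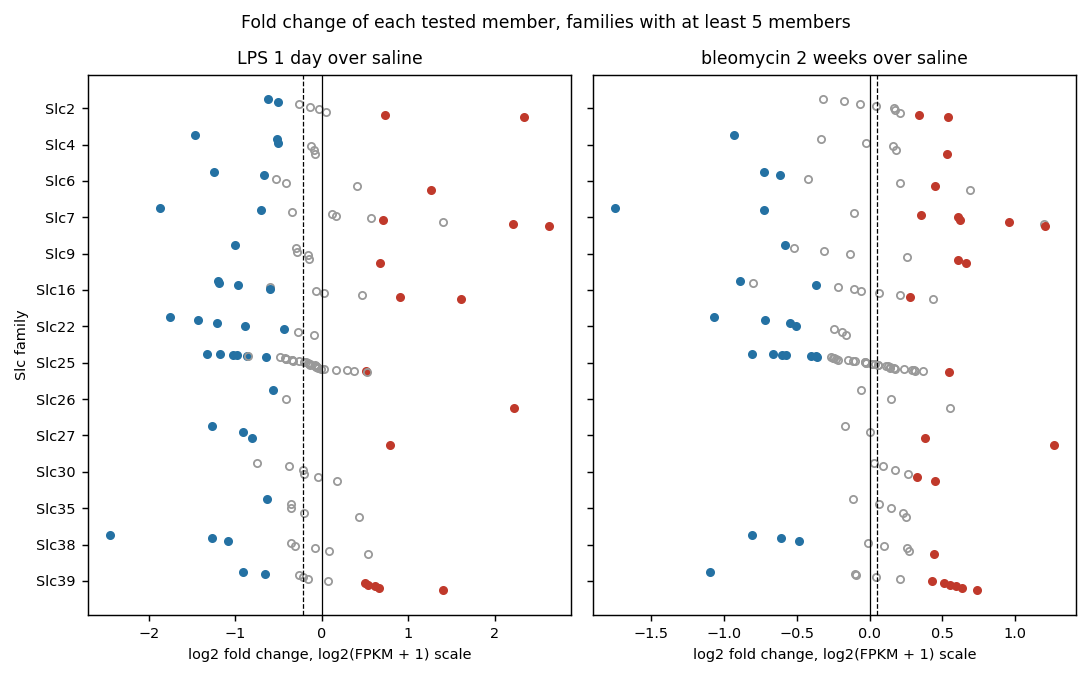
Log2 fold change of each tested member, by Slc family, for families with at least 5 members, after LPS (left) and at 2 weeks of bleomycin (right), both over saline. Red points rose, blue points fell and open grey points did not pass the limma test, and the dashed line is the median of all genes tested (-0.22 and 0.05). The Slc22 family has no red point in either panel.

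At 2 weeks after bleomycin, both Slc20 phosphate importers, 6 of 11 Slc39 zinc importers and 5 of 9 tested Slc7 members rose over saline. Those 9 include Slc7a6os, no transporter by name. In the Slc22 family of organic ion carriers 4 of 7 tested members fell. Of 190 members tested, 37 rose (19.5%) and 35 fell (18.4%), against 18.0% and 11.8% of the 12725 genes tested. The median log2 fold change was 0.06 over the members and 0.05 over all genes. With equal totals 57 rose and 26 fell, with median-ratio factors 33 and 47, and with quantile normalization 33 and 48, and the median of all genes was 0.18, -0.0085 and -0.016 under these. At 2 weeks 9 of 11 macrophage and monocyte markers were higher, with sums of 512 to 715 FPKM against 140.0 to 219 FPKM after saline, while the neutrophil markers, with 1 of 9 tested members up and 1 down, summed to 178 to 279 FPKM. All 10 AT2 markers were lower, with sums of 5797 to 7518 FPKM. Of the other lists, 5 of 6 club cell markers fell (sums of 4565 to 8041 FPKM at 2 weeks and 13632 to 18654 FPKM after saline), 4 of 8 ciliated markers fell, 4 of 9 AT1 markers fell and 1 rose, and 4 of 9 fibroblast and smooth muscle markers rose and 1 fell. The part of these changes in the transporter results was not tested.

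Both sodium-coupled phosphate importers of the Slc20 family rose at 2 weeks, beside 18.0% of all genes tested. Over the other scalings 2 rose and 0 fell, and with 1 library left out 2 rose and 0 fell. Slc20a1 was at 19.5, 21.3 and 23.2 FPKM in 2-week libraries and at 12.4, 9.98 and 11.6 FPKM in saline libraries (log2 fold change 0.86 ± 0.11 (SE), limma adjusted p = 0.00133). Slc20a2 was at 7.42, 7.53 and 7.36 FPKM at 2 weeks and at 3.47, 3.595 and 3.56 FPKM after saline (log2 fold change 0.89 ± 0.076 (SE), limma adjusted p = 0.000347). The 2-week libraries of Slc20a2 lay within 1 FPKM of each other, as did its saline libraries. The fatty acid importer Slc27a6 had the largest increase among members that reached a mean of 5 FPKM in either group, at 12.5, 11.5 and 12.6 FPKM at 2 weeks and 4.23, 4.72 and 4.43 FPKM after saline (log2 fold change 1.27 ± 0.083 (SE), limma adjusted p = 0.000166). Slc8a1, the sodium-calcium exchanger, was at 6.69, 6.94 and 4.71 FPKM at 2 weeks and at 3.45, 3.03 and 3.51 FPKM after saline (log2 fold change 0.70 ± 0.14 (SE), limma adjusted p = 0.0103). Slc20a1, Slc20a2, Slc27a6 and Slc8a1 kept their calls with each library left out in turn.

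Slc15a3, Slc29a3, Slc11a1 and Slc37a2 also rose at 2 weeks. Slc15a3 was at 17.1, 16.7 and 12.2 FPKM in 2-week libraries and at 7.67, 3.96 and 6.68 FPKM in saline libraries (log2 fold change 1.23 ± 0.23 (SE), limma adjusted p = 0.00707). Slc29a3, which carries nucleosides out of lysosomes, was at 5.63, 6.73 and 4.85 FPKM at 2 weeks and at 3.199, 2.305 and 2.61 FPKM after saline (log2 fold change 0.86 ± 0.14 (SE), limma adjusted p = 0.00415). Slc11a1 was at 9.76, 8.698 and 6.67 FPKM at 2 weeks and at 6.13, 2.88 and 4.04 FPKM after saline (log2 fold change 0.84 ± 0.23 (SE), limma adjusted p = 0.031995), and Slc37a2 was at 3.05, 2.89 and 1.78 FPKM at 2 weeks and at 0.703, 0.689 and 0.756 FPKM after saline (log2 fold change 1.04 ± 0.15 (SE), limma adjusted p = 0.00269). The groups did not overlap for any of the 4 genes, which were described because they passed the test. For Slc37a2, below 1 FPKM in every saline library, the filter on low values already required this. Slc15a3 and Slc29a3 kept their calls with each library left out in turn. Slc37a2 kept its call in the 3 fits without 1 saline library and was not tested in those without 1 2-week library, where it missed the filter on low values. A call did not hold for Slc11a1 without 2-week library 1 or 2 or saline library 2 or 3 (0.0748 to 0.0927, 0.00841 to 0.679 over all alternatives), with limma adjusted p in parentheses.

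Of 9 tested Slc7 members, Slc7a6os included, 5 rose and 2 fell at 2 weeks, beside 18.0% and 11.8% of all genes tested. Over the other scalings 5 rose and 2 fell, and with 1 library left out 4 to 5 rose and 2 fell. Slc7a5, the exchanger of leucine and other large neutral amino acids, was at 6.65, 7.06 and 6.79 FPKM in 2-week libraries and at 3.86, 2.47 and 2.85 FPKM in saline libraries (log2 fold change 0.96 ± 0.13 (SE), limma adjusted p = 0.00218). Slc7a8 was at 4.34, 4.91 and 3.19 FPKM at 2 weeks and at 1.48, 0.844 and 1.34 FPKM after saline (log2 fold change 1.21 ± 0.17 (SE), limma adjusted p = 0.002198). The heavy chain Slc3a2 was at 81.98, 62.7 and 61.7 FPKM at 2 weeks and at 71.8, 70.3 and 75.8 FPKM after saline and did not pass (log2 fold change -0.089 ± 0.12 (SE), limma adjusted p = 0.611). Slc7a10 fell most, to 5.704, 2.67 and 4.78 FPKM at 2 weeks, against 16.3, 21.2 and 13.03 FPKM after saline (log2 fold change -1.75 ± 0.25 (SE), limma adjusted p = 0.00265). The glutamine carriers Slc38a2 (log2 fold change -0.49 ± 0.084 (SE), limma adjusted p = 0.00541), Slc38a5 (log2 fold change -0.61 ± 0.11 (SE), limma adjusted p = 0.00769) and Slc1a5 (log2 fold change -0.54 ± 0.066 (SE), limma adjusted p = 0.00128) fell by less than 1 on the log2 scale. Slc7a2 again varied between libraries, at 3.78, 14.97 and 3.44 FPKM at 2 weeks, and did not pass (log2 fold change 1.20 ± 0.53 (SE), limma adjusted p = 0.135). Slc7a5, Slc7a8, Slc7a10, Slc38a2, Slc38a5 and Slc1a5 kept their calls with each library left out in turn.

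In the zinc families 6 of 11 Slc39 members rose and 1 fell at 2 weeks, beside 18.0% and 11.8% of all genes tested. Over the other scalings 6 rose and 1 fell, and with 1 library left out 4 to 6 rose and 1 fell. Of the 6 Slc30 members 2 rose, and over the other scalings 2 to 4 rose and 0 fell, and with 1 library left out 0 to 2 rose and 0 fell. Slc39a1 was at 88.5, 96.4 and 102 FPKM in 2-week libraries and at 62.9, 60.3 and 65.9 FPKM in saline libraries (log2 fold change 0.59 ± 0.082 (SE), limma adjusted p = 0.00226). The zinc exporter Slc30a4 was at 7.78, 9.54 and 8.45 FPKM at 2 weeks and at 6.48, 5.898 and 5.61 FPKM after saline (log2 fold change 0.45 ± 0.10 (SE), limma adjusted p = 0.0151). The member that fell was Slc39a8, at 5.75, 10.05 and 9.58 FPKM at 2 weeks and 14.7, 21.4 and 21.02 FPKM after saline (log2 fold change -1.10 ± 0.22 (SE), limma adjusted p = 0.0103), where the highest 2-week library stood below the lowest saline library. For Slc39a8 the lack of overlap is no test apart from the call. Slc39a1 and Slc39a8 kept their calls with each library left out in turn. The threshold was missed for Slc30a4 without 2-week library 3 or saline library 3 (0.0557 to 0.0594, 0.00702 to 0.9998 over all alternatives), with limma adjusted p in parentheses.

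Among Slc22 members 4 of 7 fell at 2 weeks and none rose, whereas 11.8% of all genes tested fell and 18.0% rose. Over the other scalings 0 rose and 4 to 5 fell, and with 1 library left out 0 rose and 4 fell. Slc22a23 was at 3.84, 3.88 and 4.03 FPKM in 2-week libraries and at 7.77, 10.7 and 9.71 FPKM in saline libraries (log2 fold change -1.07 ± 0.12 (SE), limma adjusted p = 0.0008995), and Slc22a3 was at 2.82, 2.82 and 2.78 FPKM at 2 weeks and at 4.24, 6.697 and 5.13 FPKM after saline (log2 fold change -0.72 ± 0.14 (SE), limma adjusted p = 0.009702). Slc15a2, which imports di- and tripeptides at the apical surface of AT2 cells, was at 2.74, 4.27 and 3.36 FPKM at 2 weeks and at 5.14, 7.11 and 8.12 FPKM after saline (log2 fold change -0.80 ± 0.18 (SE), limma adjusted p = 0.0163). Slc16a11, of the monocarboxylate family, was at 2.45, 2.41 and 2.71 FPKM at 2 weeks and at 5.06, 6.43 and 5.17 FPKM after saline (log2 fold change -0.89 ± 0.11 (SE), limma adjusted p = 0.001295). Slc4a5 was at 1.16, 1.56 and 1.05 FPKM at 2 weeks and at 2.27, 4.18 and 3.66 FPKM after saline (log2 fold change -0.93 ± 0.18 (SE), limma adjusted p = 0.00936). Of 35 mitochondrial carriers 1 rose and 7 fell, and over the other scalings 1 to 6 rose and 4 to 9 fell, and with 1 library left out 1 to 3 rose and 3 to 7 fell. The 3 falls were those left without 2-week library 3. Slc25a25 was the largest fall in that family, at 13.6, 8.82 and 10.7 FPKM at 2 weeks and 20.1, 16.4 and 23.6 FPKM after saline (log2 fold change -0.81 ± 0.18 (SE), limma adjusted p = 0.0142). Slc22a23, Slc22a3, Slc16a11, Slc4a5 and Slc25a25 kept their calls with each library left out in turn. Fits without 1 library lost the call for Slc15a2 without 2-week library 3 or saline library 2 or 3 (0.0513 to 0.0562, 0.00803 to 0.843 over all alternatives), with limma adjusted p in parentheses.

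The taurine importer Slc6a6 rose at 2 weeks, at 28.2, 31.7 and 27.7 FPKM, against 22.7, 19.8 and 20.8 FPKM after saline (log2 fold change 0.45 ± 0.088 (SE), limma adjusted p = 0.00931). The glycine importer Slc6a9 fell to 4.25, 3.52 and 5.31 FPKM, against 7.36, 7.79 and 8.22 FPKM after saline (log2 fold change -0.73 ± 0.13 (SE), limma adjusted p = 0.00673), and Slc6a20a was at 1.05, 1.31 and 1.01 FPKM at 2 weeks and 2.01, 2.82 and 1.98 FPKM after saline (log2 fold change -0.62 ± 0.13 (SE), limma adjusted p = 0.0109). GLUT1 (Slc2a1) was slightly higher, at 23.7, 24.5 and 23.9 FPKM at 2 weeks and 19.4, 18.9 and 17.96 FPKM after saline (log2 fold change 0.34 ± 0.070 (SE), limma adjusted p = 0.01102). The lactate exporter Slc16a3 (log2 fold change -0.21 ± 0.18 (SE), limma adjusted p = 0.413), Slc2a6 (log2 fold change -0.32 ± 0.27 (SE), limma adjusted p = 0.412) and pendrin (log2 fold change 0.55 ± 0.21 (SE), limma adjusted p = 0.0884) did not pass. Slc7a11 was not tested at 2 weeks, as its level of 1.54, 1.55 and 0.921 FPKM in 2-week libraries and 0.918, 0.497 and 0.684 FPKM in saline libraries reached 1 FPKM in only 2 of the 6 libraries. Slc6a6, Slc6a9 and Slc6a20a kept their calls with each library left out in turn. The call was lost for Slc2a1 without 2-week library 3 (0.0536, 0.00378 to 0.9998 over all alternatives), with limma adjusted p in parentheses.

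At 4 weeks after bleomycin few members could be told from saline. With all 6 libraries none of 184 members passed, and 5 had an unadjusted p under 0.05. No gene of the 12325 tested passed (0.00%), and 302 had an unadjusted p under 0.05. Without library 2, 47 of the 184 members and 2600 of the 12284 genes tested had an unadjusted p under 0.05. None of the members rose and 1 fell, against 0.790% and 0.651% of all genes tested. The 1 was Slc7a10, at 5.82 and 6.39 FPKM in library 1 and the unnumbered library and at 19.5 FPKM in library 2, against 16.3, 21.2 and 13.03 FPKM after saline (log2 fold change -1.30 ± 0.20 (SE), limma adjusted p = 0.0391 without library 2). Library 2 lay within the saline range, and with it the log2 fold change was -0.80 ± 0.54 (limma adjusted p = 0.541). A call did not hold for Slc7a10 without either 4-week library or any 1 saline library (0.0511 to 0.1698, 0.0309 to 0.1698 over all alternatives), with limma adjusted p in parentheses.

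4 members that rose at 2 weeks were lower in both of the other 4-week libraries than in every 2-week library. In library 1 and the unnumbered library Slc20a1 was at 8.21 and 12.02 FPKM, Slc20a2 at 3.704 and 4.66 FPKM, Slc27a6 at 5.11 and 6.07 FPKM and Slc7a5 at 2.39 and 2.497 FPKM. In library 2 the same genes were at 0.326, 0.413, 0 and 0.443 FPKM. Among members lowered at 2 weeks, Slc22a23 was at 3.45 and 5.81 FPKM in library 1 and the unnumbered library, against 7.77, 10.7 and 9.71 FPKM after saline. Slc39a8 was at 12.9 and 13.5 FPKM in the same 4-week libraries, against 14.7, 21.4 and 21.02 FPKM after saline, and library 2 listed both at 0. A p above the threshold in this group of few libraries does not show that levels were back at those of saline.

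The direct comparison of LPS with 2 weeks of bleomycin does not use the saline libraries. Of 188 members tested, 16 were higher after LPS (8.51%) and 50 lower (26.6%), against 10.4% and 23.8% of the 12488 genes tested. The median log2 fold change of LPS over 2 weeks was -0.21 over the members and -0.25 over all genes. With equal totals 11 were higher and 82 lower, with median-ratio factors 33 and 25, and with quantile normalization 29 and 34, with a median of all genes of -0.53, 0.015 and -0.029. The count of 66 members moved to 24 without LPS library 3 and to 35, 30 and 31 without 2-week library 1, 2 and 3. The neutrophil sum was 2842 to 7814 FPKM after LPS and 178 to 279 FPKM at 2 weeks, and its part was not tested.

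Slc2a6 differed most upward, at 18.1, 33.7 and 28.4 FPKM after LPS and 3.95, 3.41 and 2.56 FPKM at 2 weeks (log2 fold change 2.66 ± 0.25 (SE), limma adjusted p = 7.36e-05). Slc7a11 (log2 fold change 2.18 ± 0.22 (SE), limma adjusted p = 0.000106), Slc11a1 (log2 fold change 1.95 ± 0.22 (SE), limma adjusted p = 0.000212), Slc15a3 (log2 fold change 1.86 ± 0.23 (SE), limma adjusted p = 0.000357), Slc16a3 (log2 fold change 1.83 ± 0.21 (SE), limma adjusted p = 0.000205) and Slc31a2 (log2 fold change 1.79 ± 0.19 (SE), limma adjusted p = 0.000142) were higher after LPS than at 2 weeks as well, in every LPS library. Slc6a20a was at 9.87, 4.26 and 7.34 FPKM after LPS and 1.05, 1.31 and 1.01 FPKM at 2 weeks (log2 fold change 1.88 ± 0.26 (SE), limma adjusted p = 0.000619). Pendrin was also higher after LPS (log2 fold change 1.67 ± 0.25 (SE), limma adjusted p = 0.00104). Slc27a6 differed most downward, at 2.39, 0.989 and 0.732 FPKM after LPS and 12.5, 11.5 and 12.6 FPKM at 2 weeks (log2 fold change -2.54 ± 0.25 (SE), limma adjusted p = 0.000109). Slc2a6, Slc7a11, Slc11a1, Slc15a3, Slc16a3, Slc31a2, Slc6a20a, Slc26a4 and Slc27a6 kept their calls with each library left out in turn. A lack of overlap between groups for these genes is no test apart from the call.

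Both Slc20 phosphate importers were lower after LPS than at 2 weeks. Slc20a1 was at 11.9, 12.5 and 10.3 FPKM after LPS and 19.5, 21.3 and 23.2 FPKM at 2 weeks (log2 fold change -0.83 ± 0.17 (SE), limma adjusted p = 0.005797), and Slc20a2 at 3.53, 2.41 and 2.403 FPKM after LPS and 7.42, 7.53 and 7.36 FPKM at 2 weeks (log2 fold change -1.17 ± 0.19 (SE), limma adjusted p = 0.00169). Slc38a5 was at 5.95, 5.71 and 6.21 FPKM after LPS and 23.7, 21.05 and 27.2 FPKM at 2 weeks (log2 fold change -1.84 ± 0.17 (SE), limma adjusted p = 8.31e-05). Slc17a5 (log2 fold change -1.67 ± 0.38 (SE), limma adjusted p = 0.00971), Slc8a1 (log2 fold change -1.50 ± 0.35 (SE), limma adjusted p = 0.0103), Slc6a2 (log2 fold change -1.45 ± 0.32 (SE), limma adjusted p = 0.00856) and Slc39a10 (log2 fold change -1.35 ± 0.30 (SE), limma adjusted p = 0.00816) were lower after LPS. Among all genes tested 10.4% were higher and 23.8% lower after LPS than at 2 weeks. In the Slc39 family 1 member was higher and 3 lower. Over the other scalings 0 to 4 were higher and 1 to 4 lower, and with 1 library left out 0 to 3 were higher and 0 to 4 lower. Of 34 Slc25 members 2 were higher and 4 lower, and over the other scalings 0 to 4 were higher and 1 to 12 lower, and with 1 library left out 0 to 2 were higher and 0 to 9 lower. Slc20a1, Slc20a2 and Slc38a5 kept their calls with each library left out in turn. The threshold was missed for Slc17a5 without LPS library 3 (0.0568, 0.001204 to 0.286 over all alternatives), for Slc8a1 without LPS library 3 (0.0782, 0.000406 to 0.22005 over all alternatives), for Slc6a2 without LPS library 3 (0.0524, 0.00121 to 0.2499 over all alternatives) and for Slc39a10 without LPS library 3 (0.0595, 0.000731 to 0.0924 over all alternatives), with limma adjusted p in parentheses.

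**Figure D5:**
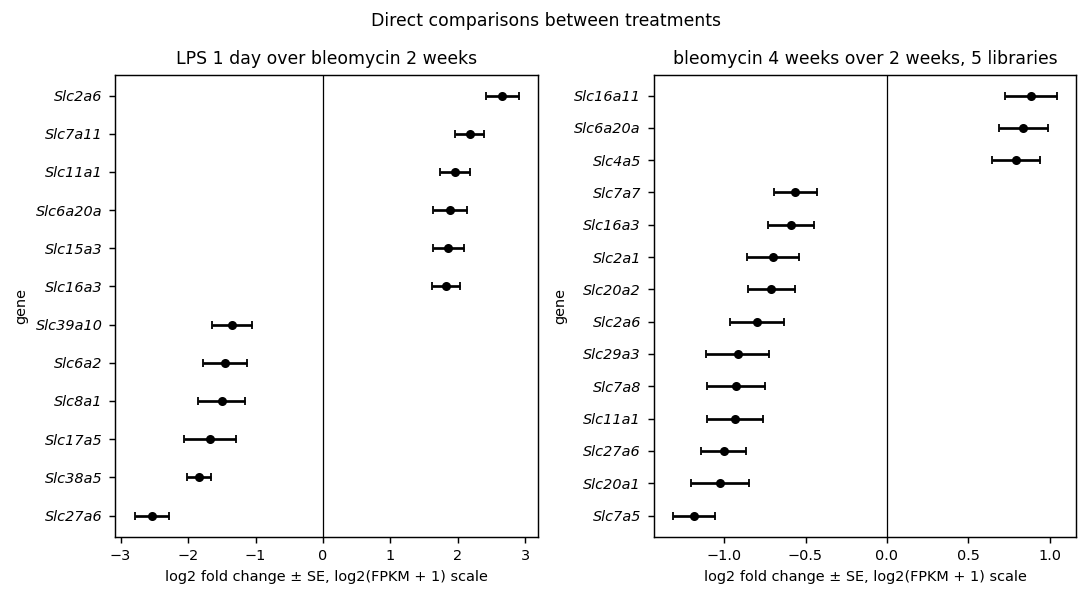
Log2 fold change with its standard error (bars) for LPS over 2 weeks of bleomycin, 12 genes (left), and for 4 over 2 weeks of bleomycin without library 2, 14 of the 15 members that passed (right). Points right of the line at 0 are higher in the group named first. Slc2a6 is at 2.66 and Slc27a6 at -2.54 on the left, and Slc7a5 is lowest on the right at -1.19.

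Between the times of bleomycin, 3 of 185 members were higher at 4 weeks than at 2 weeks without library 2 (1.62%) and 12 were lower (6.49%), against 1.95% and 7.34% of the 12440 genes tested. The largest difference was that of Slc7a5, at 2.39 and 2.497 FPKM at 4 weeks and 6.65, 7.06 and 6.79 FPKM at 2 weeks (log2 fold change -1.19 ± 0.13 (SE), limma adjusted p = 0.00477). Slc20a1 was at 8.21 and 12.02 FPKM at 4 weeks and 19.5, 21.3 and 23.2 FPKM at 2 weeks (log2 fold change -1.02 ± 0.18 (SE), limma adjusted p = 0.0164). Slc27a6 was at 5.11 and 6.07 FPKM at 4 weeks and 12.5, 11.5 and 12.6 FPKM at 2 weeks (log2 fold change -1.002 ± 0.14 (SE), limma adjusted p = 0.00911). The 3 that were higher at 4 weeks were Slc16a11 (log2 fold change 0.88 ± 0.16 (SE), limma adjusted p = 0.0183), Slc6a20a (log2 fold change 0.84 ± 0.15 (SE), limma adjusted p = 0.0173) and Slc4a5 (log2 fold change 0.79 ± 0.15 (SE), limma adjusted p = 0.0193). Macrophage and monocyte marker sums were 244 to 274 FPKM at 4 weeks without library 2 and 512 to 715 FPKM at 2 weeks, and their part was not tested. With library 2 included none of the members passed in limma. An unadjusted p under 0.05 was reached by 7 of 186 members, beside 690 of all 12472 genes tested. The count of 15 fell to 3, 4 and 9 without 2-week library 1, 2 and 3 and to 2 without 4-week library 1, and was 34 without the unnumbered library. The splits under other scalings were 3 higher and 39 lower with equal totals, 5 and 7 with median-ratio factors, and 6 and 7 with quantile normalization, and the median of all genes, -0.16 in the deposited scale, was -0.36, 0.0020 and -0.0046 under these. Slc7a5 kept its call with each library left out in turn. Fits without 1 library lost the call for Slc20a1 without 2-week library 2 or 4-week library 1 (0.0566 to 0.0698, 0.00447 to 0.478 over all alternatives), for Slc27a6 without 4-week library 1 (0.0517, 0.00245 to 0.478 over all alternatives), for Slc16a11 without 2-week library 1 or 2 or 4-week library 1 (0.0645 to 0.0799, 0.0144 to 0.478 over all alternatives), for Slc6a20a without 2-week library 1 (0.0653, 0.0105 to 0.801 over all alternatives) and for Slc4a5 without 2-week library 1 or 3 or 4-week library 1 (0.05402 to 0.0729, 0.0105 to 0.862 over all alternatives), with limma adjusted p in parentheses.

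The class also holds transporters whose symbols lie outside the Slc pattern. Of 41 such genes listed, 33 were in the tables and 31 were tested after LPS, of which 5 rose and 8 fell, beside 14.2% and 25.9% of all genes. At 2 weeks 6 of 31 rose and 5 fell, beside 18.0% and 11.8% of all genes, and between LPS and 2 weeks 1 was higher after LPS and 5 were lower, beside 10.4% and 23.8%. Their summed level was 556 to 706 FPKM after LPS, 670 to 721 FPKM at 2 weeks and 709 to 727 FPKM after saline.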

How the data were processed

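The authors deposited 3 tables, each with the FPKM of 1 treatment's libraries and of the saline libraries, per the file headers. They also deposited group means on a log2 scale, their fold ratio, a p-value and a q-value. HISAT2, StringTie and mm10 are named per the submitters' processing notes without roles, versions or settings, and no source used here gives read totals. The tables list 13755 (LPS), 13984 (2 weeks) and 13667 (4 weeks) protein-coding genes, the lowest higher-group mean being 0.5 FPKM; 1 line of each had been emptied. Saline values were identical between tables. Libraries were grouped by sample title.

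From these, two-sided limma tests (version 3.58.1, R version 4.3.3, moderated with a trend on mean level) were run on log2(FPKM + 1), where the filter asked for 1 FPKM in 3 libraries. Only the libraries of the groups compared entered a fit, without a replicate block. On data simulated for LPS against saline (12455 genes) it recovered 87% of 100 genes changed by 1 and 96% of 100 changed by 2 on the log2 scale, with a false share of 9.41% among its calls. Only 200 genes were changed there, whereas 5002 passed in the real comparison, so these shares need not hold for it. Named genes were the 6 largest called changes in each direction reaching a mean of 5 FPKM in either group, the 10 most abundant in saline, a list chosen by function, and the smallest adjusted p per family of at least 5 tested members; Slc31a1 and Slc7a7 were added after their values were seen. 1 member called between the times of bleomycin is counted but not reported here. The members and lists were chosen with earlier results of these data known.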

Additional observations from a re-analysis of the deposited data

Results flagged for a closer look

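Between the 2 times of bleomycin, 14 members described here differed by the limma test of 4 weeks over 2 weeks (Benjamini-Hochberg over 12440 genes, library 2 left out), with 2 libraries at 4 weeks and 3 at 2 weeks. The log2 fold change was -1.19 for Slc7a5, -1.02 for Slc20a1, -1.002 for Slc27a6, -0.93 for Slc11a1, -0.93 for Slc7a8, -0.92 for Slc29a3 and -0.80 for Slc2a6. It was -0.71 for Slc20a2, -0.70 for Slc2a1, -0.59 for Slc16a3 and -0.56 for Slc7a7. It was 0.88 for Slc16a11, 0.84 for Slc6a20a and 0.79 for Slc4a5. Of these, 1 kept its call with each library left out in turn, and 14 of 14 lost it when library 2 of the 4-week group was included.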

How the results depend on the processing

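Counts of members called by limma are compared here with 80 for LPS over saline, 72 for 2 weeks over saline, 0 and 1 for 4 weeks over saline with 6 and 5 libraries, 66 for LPS over 2 weeks and 15 for 4 over 2 weeks. A filter of 5 FPKM, which tests fewer genes, gave 53 for LPS over saline and 43 for LPS over 2 weeks. The authors' deposited table gave 51 members with a q-value under 0.05 for LPS. In 1 fit of all 12 libraries, with library 2 of the 4-week group in the shared spread, the counts were 12 for LPS, 0 for 2 weeks and 6 for LPS over 2 weeks (14 at an unadjusted p under 0.05 for 2 weeks). Without that library (11 libraries) they were 38 for 2 weeks, 0 for 4 weeks and 8 for 4 over 2 weeks (38 at an unadjusted p under 0.05 for 4 weeks). With library 2 added to the comparison of 4 with 2 weeks, an alternative chosen after seeing the data, the count was 0. In that fit 7 members and 690 of all 12472 genes were at an unadjusted p under 0.05. At 4 weeks over saline with 5 libraries it was 0 under median-ratio factors and under quantile normalization (36 and 41 at an unadjusted p under 0.05), and 4 over 2 weeks gave 42 with equal totals. Leave-one-out fits, the lone library of a group assumed to vary like the others, gave 42 to 108 for LPS (the lowest without saline library 3), 50 to 66 for 2 weeks, 0 to 1 (1 without library 2) and 0 to 11 for 4 weeks with 6 and 5 libraries (11 without the unnumbered library, 0 without library 1 or any 1 saline library), 24 to 87 for LPS over 2 weeks (24 without LPS library 3), and 2 to 34 for 4 over 2 weeks (3, 4 and 9 without 2-week library 1, 2 and 3, 2 without 4-week library 1 and 34 without the unnumbered library). The cause of these shifts was not tested.

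With the replicate number as a block the counts were 75 for LPS, 67 for 2 weeks, 53 for LPS over 2 weeks and 0 for 4 weeks with 6 libraries. Same-numbered libraries did not deviate together, with correlations over genes of -0.153 to 0.115, so the numbers were not taken as pairs. No block could be fitted for the 5-library comparisons, whose groups share fewer than 2 numbers. Of 132 called results of single named genes, 128 kept their call with a pseudocount of 0.1 and 131 without a filter on low values. Other settings kept fewer: 118 of 132 with equal totals, 110 of 131 with median-ratio factors and 115 of 132 with quantile normalization. Without LPS library 3 it was 45 of 74, without 1 saline library 56 to 63 of 83 and without 4-week library 1 it was 2 of 15. In 1 fit of 12 libraries 14 of 117 were kept. The only change of direction was Slc25a5 for LPS over 2 weeks, at -0.017 with quantile normalization. Depth is unknown, so no counting error can be given for values near 0.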

Other observations

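2 members were listed only in the table of LPS and saline and were below the filter of the main tests. No listed gene has a higher-group mean below 0.5 FPKM. With saline levels near 0, such genes could be listed only where the treated group was higher. Slc6a12, which imports betaine and GABA, was at 1.14, 2.10 and 0.670 FPKM in LPS libraries and is listed at 0 in all saline libraries. Slc6a13, its neighbour on chromosome 6 and an importer of GABA, was at 0.769, 2.10 and 0.732 FPKM in LPS libraries and at 0.0551, 0.1001 and 0.0502 FPKM in saline libraries. For both genes every LPS library stood above every saline library, which follows in part from this listing. Both entered the fit without a filter on low values, but no result of that fit is reported for them here.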
